A study of Homo sapiens with 9 samples.

Results

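In all, 6 intervals of the human genome that hold the genes CEBPD, POU3F1, LMO1, SCUBE2, PFKP and ERICH1 were examined for DNA methylation in HEK293T cells, because CCCGGG sites in them had higher methylation after transfection with full-length TET1 than with an empty vector. The members were all CCCGGG sites in these intervals with a value in at least 2 libraries of each group, which gave 53 of 64313 such sites. The intervals themselves were chosen from the contrast of TET1-FL with the empty vector in these libraries, and the PFKP interval also stood out with TET1-ALT. The differences at the members are therefore given as a description. The members also entered a fit over all sites, from which nothing is read about them. The human embryonic kidney line HEK293T carries the SV40 T-antigen and was transfected by lipofection with pIRES plasmids, either empty, for full-length TET1 (TET1-FL) or for the form called TET1-ALT, which by the title of the series lacks the CXXC domain. All groups had the same lipofection and were harvested for DNA after 4 days. There were 3 libraries per group, and nothing in the labels says whether they came from separate cultures. The share of cells transfected and the amount of each TET1 form were not analysed here, and methylation values do not check the identity of the line.

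TET1 oxidises 5-methylcytosine, which can lead to loss of the mark, and its CXXC domain binds CpG-rich DNA without methylation. Methylation of CpG-rich promoters is commonly linked to silent genes, whereas active or poised promoters are usually free of it. Values here come from digital restriction enzyme analysis of methylation (DREAM). It reads the state of the CpG inside CCCGGG from the ends left by SmaI, which cuts only unmethylated copies, and then by XmaI, which cuts the rest. A value is the percentage of methylated reads at a site. In what follows, the lead site of a locus is its member with the largest difference between TET1-FL and empty vector means.

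For PFKP, the gene of the platelet-type phosphofructokinase of glycolysis, the sites could be set against promoter sequence, because the spacing of CCCGGG in it is distinctive. RefSeq promoter entries (GRCh38.p14, plus strand) run from 250 bases before a transcription start to 50 after it. The word CCCGGG, which reads the same on both strands, was found in 20.9% of 35116 such entries of 300 bases. Of the 4 PFKP entries, 2 held it, with 4 copies in all. Counted from the first copy, the others began 132, 1342 and 1390 bases further on. In the list of sites this spacing occurred once in the genome, from 3110014 on chromosome 10, and the copies corresponded to the members at 3110014, 3110146 and 3111356 and to 3111404, which was no member. The first pair lay in the first entry, starting 151 and 19 bases before its transcription start. The third, at 3111356, is the PFKP lead site and began 28 bases before the start of the third entry. The 250 bases before each of these starts are shown because the members in the first promoter were near zero in all libraries and the other held the lead site. Capitals mark CCCGGG.
PFKP entry 1: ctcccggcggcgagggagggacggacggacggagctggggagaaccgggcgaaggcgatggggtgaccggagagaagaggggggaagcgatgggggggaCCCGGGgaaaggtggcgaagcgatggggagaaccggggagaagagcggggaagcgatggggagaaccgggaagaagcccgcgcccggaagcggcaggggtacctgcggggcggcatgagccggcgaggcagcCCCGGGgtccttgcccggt
PFKP entry 3: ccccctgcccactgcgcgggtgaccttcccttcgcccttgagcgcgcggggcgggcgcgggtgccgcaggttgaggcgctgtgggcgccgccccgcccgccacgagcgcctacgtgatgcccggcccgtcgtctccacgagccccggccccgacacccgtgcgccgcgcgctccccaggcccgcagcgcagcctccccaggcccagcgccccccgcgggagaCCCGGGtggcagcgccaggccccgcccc
Both stretches are GC-rich, with 28 CpG dinucleotides and 72.8% G or C in the first and 37 and 81.6% in the other. The POU3F1 and SCUBE2 entries held 1 copy each and the LMO1 entry 0, which allowed no match by spacing. CEBPD and ERICH1 had no entry at hand.

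The intervals differed in how many sites they offered. CEBPD is a gene for a leucine zipper transcription factor of acute-phase and inflammatory responses, and its interval on chromosome 8 from 48640000 to 48660000 (hg19) gave 8 members of 16 listed sites. POU3F1 encodes a POU-domain transcription factor of Schwann cell and neural development, and its interval on chromosome 1 from 38505000 to 38520000 gave 8 of 16. LMO1 encodes a LIM-only transcriptional cofactor known as an oncogene in T-cell leukaemia and neuroblastoma (chromosome 11 from 8240000 to 8300000, 6 of 15). SCUBE2 encodes a secreted glycoprotein that helps release Hedgehog ligands (chromosome 11 from 9035000 to 9120000, 4 of 10). The PFKP interval (chromosome 10 from 3105000 to 3180000) gave 13 of 35. ERICH1, a gene for a glutamate-rich protein, names the interval on chromosome 8 from 560000 to 690000, with 14 of 40. Gene names follow these intervals. No hg19 annotation was used here, so exon, intron and UTR positions are not given.

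Across the 53 members, differences of at least 10 points were few. In TET1-FL, 8 members (15.1%) had all libraries above the empty vector range and group means at least 10 points apart, where 0.224% of all 64313 sites did. These 8 belong to the contrast that chose the intervals, and nothing is read from that share. They lay in 5 loci, with 3 in CEBPD, 2 in PFKP, 1 each in POU3F1, LMO1 and SCUBE2 and 0 in ERICH1. In TET1-ALT, 6 members (11.3%) met the same criterion beside 0.261% of all sites. This second comparison uses the same empty vector libraries. At 5 members the criterion was met in both comparisons. The median difference over the 53 members was 0.0033 points for TET1-FL and 0.0567 points for TET1-ALT, beside -0.20 and -0.0433 over all sites. Differences of at most 3 points were found at 35 members (66.0%) for TET1-FL and 40 (75.5%) for TET1-ALT, beside 82.2% and 86.9% of all sites. Lower values by the same criterion were found at 1 member in each comparison, beside 0.6% and 0.4% of all sites.

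No single site passed limma (adjusted p threshold 0.05). The count was 0 of 64313 sites (0%), and so 0 of 53 members, between TET1-FL and the empty vector, between TET1-ALT and the empty vector, and between the TET1 forms. At an unadjusted p under 0.05 there were 6782, 4697 and 3472 sites in the same order. Of these, 6038, 3552 and 2739 were lower and 744, 1145 and 733 higher in the group named first. With 3 libraries per group and unknown depth, a site that missed the threshold is not thereby shown to be equal between groups. After the libraries were centred on the mean of sites of at least 80%, 17666 sites (27.5%) passed for TET1-FL, 17154 of them (26.7% of all sites) higher. The 17 members among them (32.1% of the 53) were all higher, and 8 of the 17 had a mean under 5%. Of the 17154 higher sites, 16696 had a mean under 5%, to which the centring adds a constant. Nothing is read about the members from these calls.

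CEBPD held the highest difference in the table. Its lead site at 48650351 had 6.87%, 38.2% and 23.5% in empty vector replicates 1, 2 and 3, then 34.4%, 37.0% and 48.1% in TET1-ALT and 55.5%, 58.8% and 57.8% in TET1-FL. The TET1-FL libraries were tightly grouped above all others, the empty vector libraries were spread widely, and empty vector replicate 2 lay inside the TET1-ALT range. The means were 22.8% ± 15.7 (SD, n = 3) with the empty vector, 39.8% ± 7.28 (SD, n = 3) in TET1-ALT and 57.4% ± 1.69 (SD, n = 3) in TET1-FL. The TET1-FL difference of 34.6 points ranked 1 among the 64313 sites, and the TET1-ALT difference of 17.0 points ranked 29. Without empty vector replicate 1 they were 26.6 and 8.99 points.

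A second CEBPD site, 200 bases away at 48650151, followed the lead site library by library. It had 11.8%, 42.5% and 27.9% with the empty vector, 38.1%, 46.9% and 53.8% in TET1-ALT and 61.6%, 62.5% and 59.6% in TET1-FL. In each of the 9 libraries it was above the lead site, by 1.78 to 9.90 points. Its mean differences were 33.9 points for TET1-FL and 18.9 points for TET1-ALT, the latter 11.1 without empty vector replicate 1.

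The third CEBPD site of the group, at 48650809, was low in all libraries. Values were 0.73%, 11.5% and 0.99% with the empty vector, 7.64%, 6.41% and 14.0% in TET1-ALT and 12.4%, 18.5% and 18.3% in TET1-FL. Empty vector replicate 2 was again the highest of its group and reached to within a point of the lowest TET1-FL library. The mean difference was 12.0 points in TET1-FL. In TET1-ALT it was 4.95 points with overlapping libraries, and leaving out empty vector replicates 1, 2 and 3 in turn gave 3.10, 8.50 and 3.23 points, and leaving out TET1-ALT replicate 3 gave 2.61.

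These 3 sites spanned 658 bases, and the members on each side of them were nearly level between groups. At 48650978, which is 169 bases beyond, the means were 21.6% ± 4.53, 21.4% ± 2.36 and 22.6% ± 1.00 (SD, n = 3 each) with the empty vector, TET1-ALT and TET1-FL. At 48649368, which is 783 bases before the group, they were 80.3% ± 0.716, 81.6% ± 1.88 and 77.7% ± 3.80. The 5 other CEBPD members differed by -3.47 to 0.957 points in TET1-FL and by -2.47 to 2.48 points in TET1-ALT. Empty vector libraries differed among themselves by 31.3 points at the lead site and by at most 8.93 points at these 5. The 3 sites thus lay between a stretch of 74.7% to 80.3% and one of 21.6% to 35.0% (empty vector means).

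**Figure D1:**
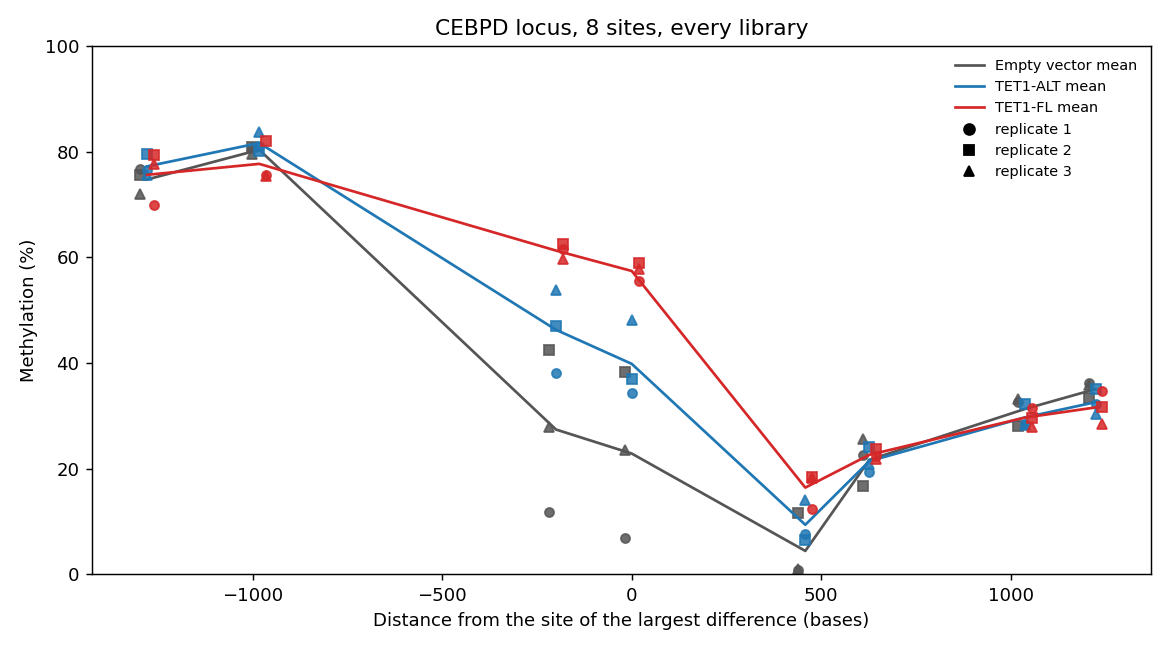
Methylation (%, vertical axis) at the 8 CEBPD members by distance in bases from the lead site, with a symbol for each library (shifted slightly sideways by group) and lines through the group means. TET1-FL libraries lie above the empty vector libraries at the 3 sites from -200 to 458 bases, where TET1-ALT and empty vector libraries overlap. The groups run together at the other 5. Empty vector replicate 1 is at 6.87% at the lead site and replicate 2 at 38.2%.

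At POU3F1 a single member was much higher with both TET1 forms. The lead site at 38511922 had 13.3%, 21.2% and 19.1% with the empty vector, 25.2%, 36.6% and 34.2% in TET1-ALT and 31.1%, 43.3% and 37.9% in TET1-FL. All libraries of either TET1 form lay above the empty vector range, and those of the TET1 forms overlapped. The differences were 19.5 points for TET1-FL and 14.1 points for TET1-ALT, and 17.3 and 11.9 without empty vector replicate 1.

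The POU3F1 members next to it differed in level, high before it and near zero beyond it. The member 201 bases before, at 38511721, had 69.2%, 72.3% and 80.5% with the empty vector, 76.4%, 79.8% and 70.4% in TET1-ALT and 78.9%, 81.0% and 83.2% in TET1-FL. These libraries overlapped, with differences of 7.07 points for TET1-FL (4.69 without empty vector replicate 1) and 1.55 points for TET1-ALT (-0.828 without empty vector replicate 1). The member 814 bases beyond the lead site, at 38512736, had 0.09% to 0.18% in the 9 libraries. The 5 other members differed by -0.78 to 0.03 points in TET1-FL and by -1.46 to 0.09 points in TET1-ALT.

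LMO1 also had a single site that was higher. At the lead site, 8290260, the empty vector libraries had 5.63%, 13.9% and 13.1%, TET1-ALT had 14.9%, 24.3% and 27.1% and TET1-FL had 27.6%, 33.9% and 27.8%. No 2 groups overlapped, but the gaps on either side of TET1-ALT were narrow. Its lowest library was less than a point above the highest empty vector library. Its highest was less than a point below the lowest TET1-FL library. The differences were 18.8 points for TET1-FL and 11.2 points for TET1-ALT, and 16.2 and 8.57 without empty vector replicate 1. The nearest member, 316 bases before at 8289944, was level, with 86.2%, 89.9% and 85.5%, then 88.3%, 86.3% and 85.7%, then 87.7%, 90.6% and 86.8% in the same order of groups.

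The LMO1 interval also held the member with the lower values. The site at 8248574 had 94.3% and 98.1% in empty vector replicates 1 and 2 and no value in replicate 3, so its empty vector mean rests on 2 libraries. TET1-ALT had 86.0%, 92.7% and 76.2% and TET1-FL had 79.7%, 86.3% and 91.8%, with differences of -11.2 and -10.2 points. Without TET1-ALT replicate 3 the former was -6.86 points. The 3 other LMO1 members, at 0.0467% to 96.9% mean methylation, differed by -0.43 to -0.0067 points in TET1-FL and by -0.763 to 0.0167 points in TET1-ALT.

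SCUBE2 had its higher site in a methylated stretch. The lead site at 9113235 had 58.5%, 79.4% and 67.7% with the empty vector, 84.8%, 86.3% and 88.2% in TET1-ALT and 87.7%, 87.6% and 86.2% in TET1-FL. The TET1 libraries were close together, above an empty vector group that was spread over 20.9 points. The differences were 18.6 points for TET1-FL and 17.9 points for TET1-ALT, and 13.6 and 12.9 without empty vector replicate 1.

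Of the other SCUBE2 members, the site 186 bases before the lead, at 9113049, had 90.7%, 88.2% and 86.0% with the empty vector, 93.3%, 92.0% and 91.3% in TET1-ALT and 91.2%, 89.8% and 89.2% in TET1-FL. The TET1-ALT libraries were above the empty vector range there, with a difference of 3.91 points. The site at 9112175 had 86.6%, 87.5% and 61.8%, then 82.4%, 76.2% and 82.0%, then 67.6%, 64.7% and 73.1%. At that site empty vector replicate 3 had the lowest value of all 9 libraries. The TET1-FL difference of -10.2 points became -6.19, -5.75 and -18.6 points on leaving out empty vector replicates 1, 2 and 3 in turn, and the TET1-ALT difference of 1.58 points became 5.57, 6.01 and -6.82 points. At the remaining member, 9112803, the differences were 0.703 and 0.827 points.

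At PFKP the higher sites were the lead site in the promoter of the third entry shown above and its neighbour. The lead site at 3111356 had 12.5%, 34.8% and 37.2% with the empty vector, 44.1%, 48.4% and 56.4% in TET1-ALT and 47.1%, 51.2% and 47.9% in TET1-FL. The TET1 forms overlapped, and both were above the empty vector range. Empty vector replicate 1 stood far below the other two. The difference was 20.6 points for TET1-FL and 21.5 points for TET1-ALT, ranking 7 and 9 among the 64313 sites. Without empty vector replicate 1 the differences were 12.7 and 13.6 points.

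The PFKP member 485 bases before it, at 3110871, had 13.5%, 23.1% and 9.77% with the empty vector, 26.1%, 28.4% and 27.3% in TET1-ALT and 32.6%, 23.9% and 28.9% in TET1-FL. Here the lowest value was in empty vector replicate 3, and the differences were 13.0 points for TET1-FL and 11.8 points for TET1-ALT. Without empty vector replicate 3 they were 10.1 and 8.93 points. In the promoter of the first entry, methylation was 0.32% to 1.16% at 3110014 and 0.54% to 1.94% at 3110146 over the 9 libraries. The 2 members in the first PFKP promoter thus had values near zero in every library. The lead site, the only member in the other promoter, had intermediate values. The remaining CpGs of these promoters were not measured.

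Beyond the lead site the next PFKP member was 9866 bases away, at 3121222. It had 57.3%, 60.6% and 51.1% with the empty vector, 54.2%, 50.4% and 55.0% in TET1-ALT and 56.0%, 60.0% and 53.5% in TET1-FL, all overlapping. The 10 other members of the interval differed by -5.47 to 1.94 points in TET1-FL and by -2.37 to 3.13 points in TET1-ALT. Their widest empty vector range was 11.1 points, against 24.75 points at the lead site.

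The ERICH1 interval had the smallest lead difference of the 6 for TET1-FL, and for TET1-ALT the smallest was at LMO1. At 687736 the empty vector libraries had 28.8%, 33.8% and 34.5%, TET1-ALT had 45.1%, 43.0% and 42.9% and TET1-FL had 40.5%, 43.9% and 41.6%. Both TET1 forms lay above the empty vector range and overlapped with each other. The differences were 9.61 points for TET1-FL, just under the 10 points of the criterion, and 11.3 points for TET1-ALT, and 7.83 and 9.50 without empty vector replicate 1.

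The ERICH1 members beside the lead site had overlapping groups. The member 257 bases before it, at 687479, had 53.1%, 62.8% and 60.0%, then 59.7%, 67.4% and 56.7%, then 67.7%, 67.5% and 62.3% in the empty vector, TET1-ALT and TET1-FL libraries. These overlapped, with differences of 7.24 points for TET1-FL and 2.66 points for TET1-ALT, and 4.46 and -0.113 without empty vector replicate 1. Without TET1-ALT replicate 2 the TET1-ALT difference was -0.413. The member 410 bases beyond, at 688146, had 26.7%, 23.9% and 25.6%, then 26.8%, 26.8% and 25.7%, then 23.6%, 24.8% and 27.5%. The 11 other members differed by -4.20 to 3.02 points in TET1-FL and by -0.527 to 2.58 points in TET1-ALT.

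**Figure D2:**
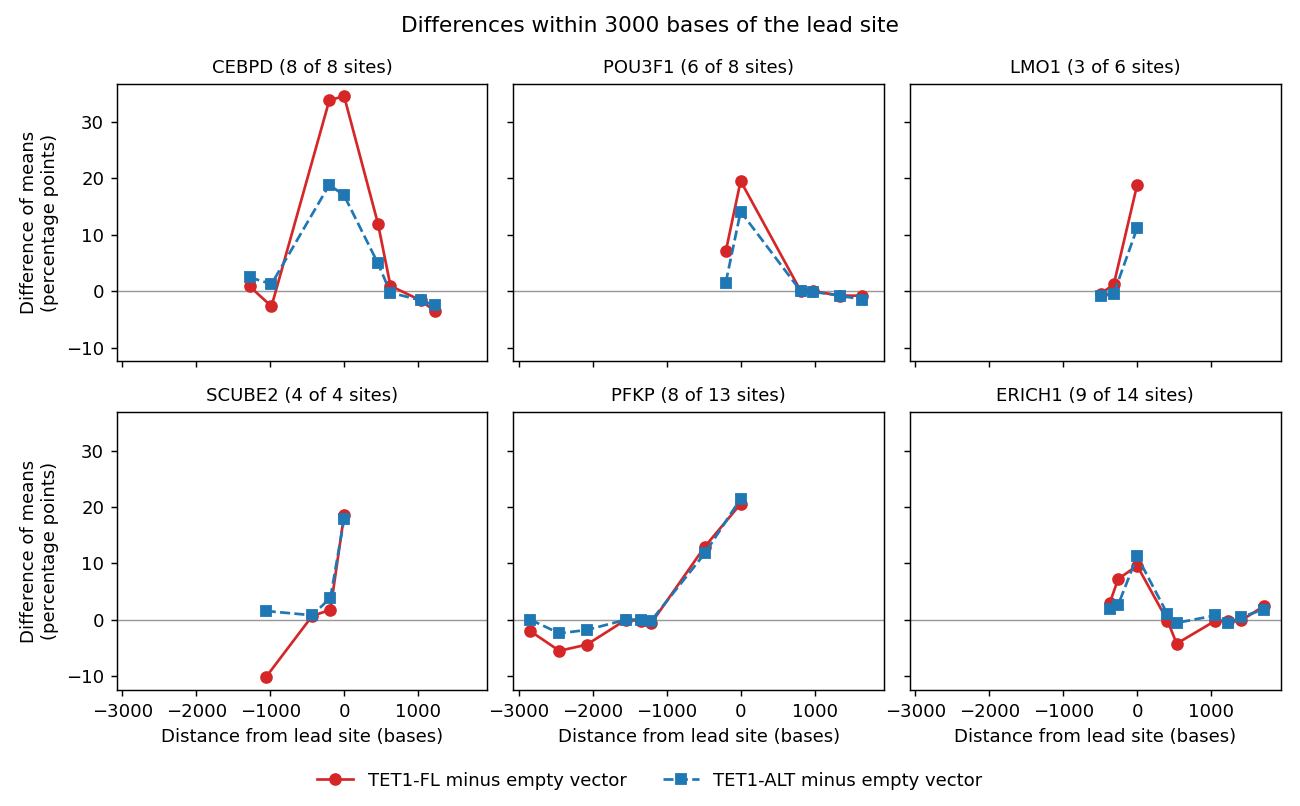
Difference of group means from the empty vector (percentage points, vertical axis) for TET1-FL and TET1-ALT at members within 3000 bases of each lead site, by distance in bases. In these panels, differences above 5 points are found at the lead site and, in CEBPD, POU3F1, PFKP and ERICH1, at members within 485 bases of it; in SCUBE2 a member at -1060 bases has a TET1-FL difference of -10.2 points, and in PFKP a member at -2453 bases has -5.47.

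Members with little methylation over all libraries had little in every group, which choosing them by that mean largely fixes. The 13 members with a mean under 5% over all libraries lay in POU3F1, LMO1, PFKP and ERICH1, and none differed by more than 0.773 points in size in TET1-FL or 0.793 points in TET1-ALT. Of the other members, 4 had means of 5 to 20%, 22 of 20 to 80% and 14 of 80% or more. Of the 8 members that met the criterion in TET1-FL, TET1-ALT was between the empty vector and TET1-FL at 7, the exception being the PFKP lead site. The choice of these 8 by their TET1-FL difference partly fixes this order. Lead sites were intermediate between a more and a less methylated measured neighbour at 4 of 6 loci (66.7%), as were 46.5% of the 16274 sites of 20 to 80% in the table with a measured site on each side.

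Averaged over the complete members of at least 5% methylation, every locus had a higher mean with both TET1 forms than with the empty vector. CEBPD, over 8 sites, had 33.5%, 40.8% and 37.3% with the empty vector, 39.7%, 42.7% and 44.3% in TET1-ALT and 45.4%, 48.3% and 45.9% in TET1-FL. Its TET1-FL difference was 9.31 points, with pairs of libraries 4.58 to 14.8 points apart, and its TET1-ALT difference was 5.03 points (-1.10 to 10.8, and 3.18 without empty vector replicate 1). For TET1-FL the other differences were 5.01 points in POU3F1, 6.54 in LMO1, 2.74 in SCUBE2, 1.98 in PFKP and 2.18 in ERICH1. For TET1-ALT they were 2.71, 3.34, 6.05, 2.50 and 2.39 points in the same order. SCUBE2 libraries overlapped in both comparisons (pairs from -2.97 to 8.31 and from -0.323 to 12.2 points), and its means moved most with single libraries, to 5.28 and 0.112 points for TET1-FL without empty vector replicate 2 or 3 and to 3.42 points for TET1-ALT without empty vector replicate 3. Without empty vector replicate 1 the PFKP difference for TET1-FL was 1.16 points. LMO1 overlapped in TET1-ALT (-0.277 to 7.47 points, and 2.10 points without empty vector replicate 1). The LMO1 means left out the incomplete member at 8248574, which had differences of -10.2 points in TET1-FL and -11.2 points in TET1-ALT.

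Much of these means rested on the lead site. That site was chosen by its TET1-FL difference, so a fall of the TET1-FL mean difference without it was fixed in advance. Only the size of the fall is described. Without the lead site the TET1-FL difference was 5.70 points in CEBPD, 1.38 in POU3F1, 0.390 in LMO1, -2.56 in SCUBE2, -0.0796 in PFKP and 1.25 in ERICH1. CEBPD, where the neighbour 200 bases away was also high, kept the most, and SCUBE2 and PFKP turned to values below 0. For TET1-ALT the differences without the lead site were 3.33 points in CEBPD, -0.144 in POU3F1, -0.587 in LMO1, 2.11 in SCUBE2, 0.388 in PFKP and 1.28 in ERICH1, so POU3F1 and LMO1 turned below 0.

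The TET1 forms overlapped with each other at 4 of 6 lead sites. TET1-FL libraries were above TET1-ALT libraries without overlap at the CEBPD and LMO1 lead sites, by 17.6 and 7.64 points. By the criterion of at least 10 points, 2 members were higher in TET1-FL than in TET1-ALT, both in CEBPD, where 0.124% of all sites were. The member 9112175 in SCUBE2 was lower, by 11.8 points (0.244% of all sites). This comparison shares the TET1-FL libraries with the one that chose the loci.

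**Figure D3:**
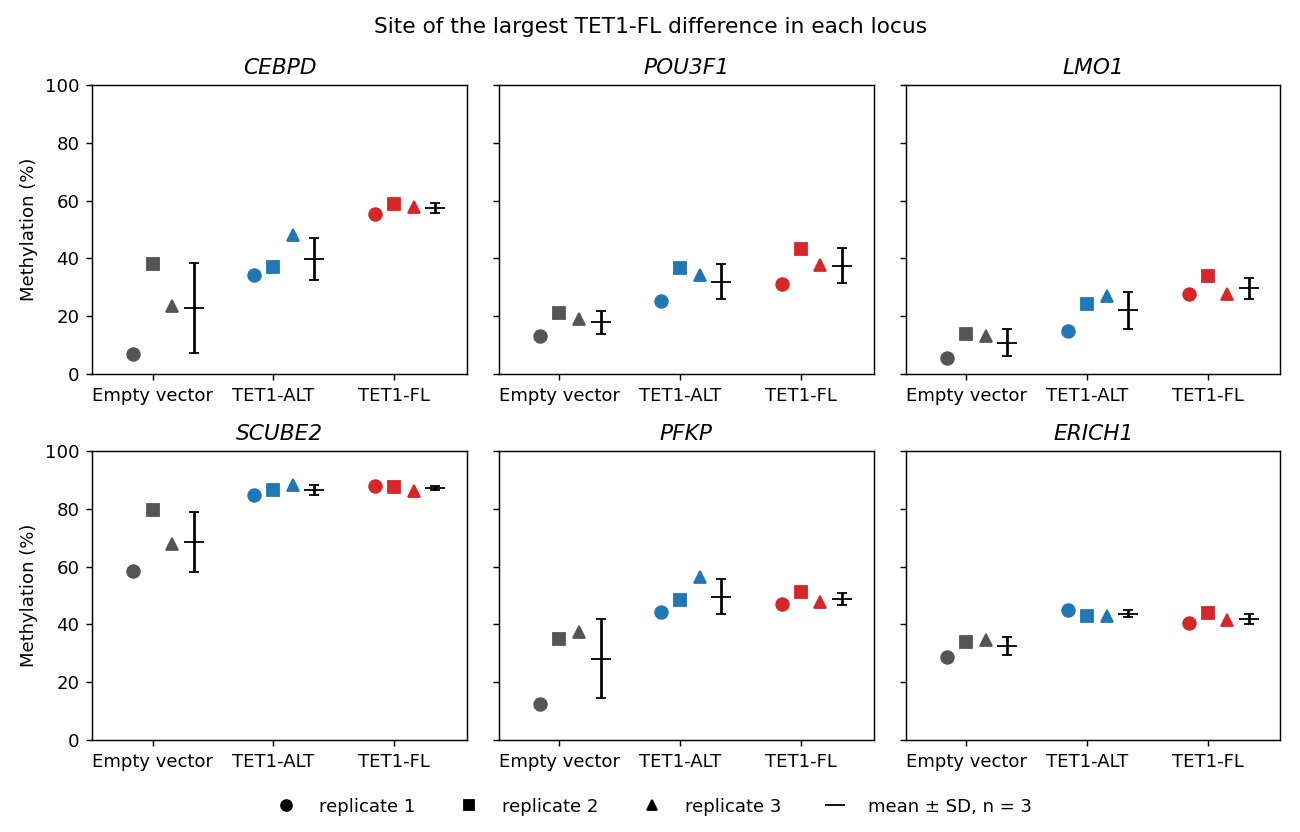
Methylation (%, vertical axis) at the lead site of each locus in every library, by group, with a symbol for each replicate number and the mean ± SD (n = 3) beside each group. The lowest point in all 6 panels is empty vector replicate 1, from 5.63% at LMO1 to 58.5% at SCUBE2.

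The libraries within a group also differed in a like way at the lead sites, on 4 chromosomes. The lowest of the 9 values came from empty vector replicate 1 at 6 of 6 lead sites, at 7 of the 8 members of the criterion, and at 6 of the 47 members that were no lead site. Over the table it gave the lowest of 9 values at 5.52% of the 14881 complete sites of 20 to 80%, and at 37.1% of the 70 complete sites that met the criterion in TET1-FL. Empty vector replicate 3 gave the lowest value at 10.5% and 37.1% of the same sets, and replicate 2 at 6.16% and 14.3%. The class of 20 to 80% leaves out the SCUBE2 lead site and the CEBPD member at 48650809. Over the 31676 complete sites of 5 to 95%, empty vector replicate 1 gave the lowest value at 5.92%. It was not low over the table, since its mean over the 59751 complete sites was 43.4%, beside 43.5% and 43.2% for replicates 2 and 3. TET1-ALT replicate 1 was the lowest of its group at 5 of 6 lead sites, and at 19.8% of the complete sites of 20 to 80%, with the highest TET1-ALT mean over all complete sites (43.5%, beside 43.04% and 42.8%). TET1-FL replicate 1 was the lowest of its group at 5 of 6 lead sites, beside 38.7%. The 6 lead sites are few and share the same libraries, and the part of the library in the differences was not tested.

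The empty vector libraries were spread widely at some lead sites. They differed by 31.3 points at CEBPD, 24.75 at PFKP and 20.9 at SCUBE2, where 2.76% of complete sites of 20 to 80% reached 20 points and the median was 4.86. The SCUBE2 lead site, with a mean of 80.7% over all libraries, lay just outside that class. Of complete sites of 5 to 95%, 1.57% reached 20 points, and the median was 3.95. At POU3F1, LMO1 and ERICH1 the ranges were 7.88, 8.26 and 5.72 points. Without empty vector replicate 1, all 8 members of the criterion in TET1-FL were still at least 10 points higher, and 4 of the 6 in TET1-ALT were.

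**Figure D4:**
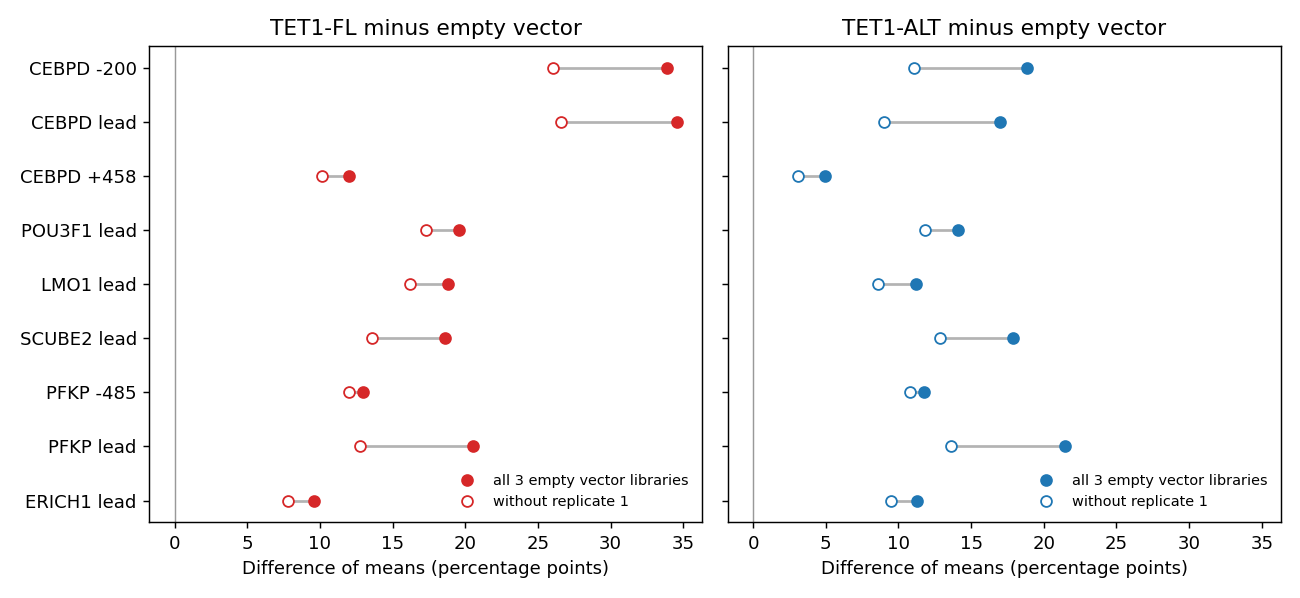
Difference of group means from the empty vector (percentage points, horizontal axis) at the 6 lead sites and the 3 other members of the criterion in TET1-FL, named by locus and distance in bases, with all 3 empty vector libraries (filled) and without replicate 1 (open). All open points lie above 0, and the CEBPD lead site moves from 34.6 to 26.6 points for TET1-FL and from 17.0 to 8.99 points for TET1-ALT.

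Outside the 6 intervals, few sites had the pattern of the CEBPD lead site over the 9 libraries. Of 3393 complete sites with a standard deviation of at least 5 points, 8 (0.236%) had a Pearson correlation of 0.9 or more with it. At 6 sites (0.177%) the correlation was -0.9 or less. These counts are a description over 9 libraries that share the 3 groups. The 3 most alike were on chromosome 9 at 100616775 (r = 0.968), on chromosome 21 at 9826364 (r = 0.961) and on chromosome 8 at 72459871 (r = 0.921). The first had 1.64%, 11.8% and 3.82% with the empty vector, 10.0%, 11.9% and 16.7% in TET1-ALT and 15.6%, 16.7% and 18.0% in TET1-FL. The site on chromosome 21 had 18.3%, 34.0% and 32.5%, then 37.3%, 39.5% and 43.3%, then 45.7%, 48.4% and 44.0%. The last had 33.1%, 46.2% and 42.1%, then 45.9%, 43.9% and 48.4%, then 47.1%, 49.2% and 54.5%. In each of them the lowest value was that of empty vector replicate 1. Their choice by likeness to the CEBPD lead site, where that library was also lowest, largely fixed this. The other lead sites had r of 0.732 (ERICH1) to 0.928 (LMO1) with the CEBPD lead site, a likeness that their choice partly fixes.

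A further 7 sites of the intervals had some values but too few to be members. At 38512652 in POU3F1 the 6 TET1 libraries had 0.41% to 1.62%, with no empty vector value, and at 38511981 5 of them had 15.2% to 18.3%. At 3159949 in PFKP the values ranged from 74.4% to 98.0%, with a single empty vector library at 87.6%. The remaining 4 had 3 to 5 values each.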

How the data were processed

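The deposited table holds methylation in percent. Per the series' design text and the labels, the authors divided methylated by all reads at each CCCGGG site and corrected for enzyme efficiency with spiked-in standards, with at least 20 reads per value and 18 PCR cycles. The build is hg19 according to the submitters' processing notes. For aligner and caller, the sources used here give nothing. Depth beyond the minimum is unknown, so no counting interval is given, and nothing names molecular identifiers. Values were present at 61549 to 72340 sites per library.

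The percentages were tested with limma (3.58.1, R 4.3.3), with group means, trend and robust moderation, fitted to all 9 libraries over 64313 sites and adjusted by Benjamini-Hochberg. The scripts were tested on simulated data. A site met the criterion where libraries of 2 groups did not overlap and means were at least 10 points apart. Locus means used complete members with a mean of at least 5%. The text gives in full the lead sites with the member on each side, all members differing by 10 points, and the 3 sites most like the CEBPD lead site at least 1 Mb apart. Intervals, members and lists were chosen with earlier results of these data known. Labels give replicate numbers without saying what they share. The p-values from limma set group differences against the spread between these libraries, which may be technical.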

Additional observations from a re-analysis of the deposited data

How the results depend on the processing

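The count of called sites was 0 in limma for each of the 3 comparisons under most alternatives. Without empty vector replicate 2 there were 2 calls for TET1-FL and 4 for TET1-ALT, all lower and none a member, so leaving out single libraries gave 0 to 2, 0 to 4 and 0 calls. Centring the libraries on the mean of sites of at least 80% gave 17666 calls for TET1-FL (27.5% of sites, 512 lower and 17154 higher, with 17 of the 53 members, 32.1%, among the higher). Of the higher ones 16696 had a mean under 5%, to which the centring adds a constant. With a replicate block all 3 counts were 0. Over 28190 sites, same-numbered libraries of different groups had correlations of deviations from -0.0153 to 0.0169, and other pairs from -0.0257 to 0.0248. Spread at single sites can hide a shared culture or batch in such correlations, so what the numbers share stays unknown.

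Members of the criterion numbered 8 to 10 for TET1-FL and 4 to 8 for TET1-ALT when each library was left out, and 3 and 1 when 20 points were required. Locus means over sites of 20 to 95% were 6.46 (POU3F1), 10.03 (LMO1) and 4.43 (ERICH1) points for TET1-FL and 5.39 (LMO1) and 3.74 (ERICH1) for TET1-ALT. Over all complete members they were 3.04, 3.91 and 1.37 for TET1-FL and 1.61 (POU3F1), 2.01 (LMO1) and 1.56 (ERICH1) for TET1-ALT. Centring gave 5.96 (POU3F1) and 3.13 (ERICH1) for TET1-FL. Without the lead site TET1-FL differences were 5.70, 1.38, 0.390, -2.56, -0.0796 and 1.25 in the order of the loci above. For TET1-ALT they were 3.33 (CEBPD), -0.144 (POU3F1), -0.587 (LMO1), 2.11 (SCUBE2), 0.388 (PFKP) and 1.28 (ERICH1). These follow from the sites averaged.

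Leaving out each library gave for TET1-FL 7.46 to 11.1 (CEBPD), 4.49 to 5.53 (POU3F1), 5.30 to 7.55 (LMO1), 0.112 to 5.28 (SCUBE2), 1.16 to 2.90 (PFKP) and 1.75 to 2.44 points (ERICH1). No difference of at least 10 points at a named site changed sign for TET1-FL or TET1-ALT under the alternatives run. Unknown depth limits all single-site values.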
